A study of Mus musculus with 5 samples.

Results

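Among CD3+ cells sorted from mouse brain after stroke, 175 of 692 cells (25.3%, 95% Wilson interval 22.2 to 28.7) had a mean score of the noncoding transcripts Kcnq1ot1 and A630089N07Rik above 1. They are called Kcnq1ot1-high cells here, and the remaining 517 cells are called other cells. The interval treats all cells as independent and leaves out the spread between samples, whose shares ran from 16.7% to 30.0%. The gate was taken from measured values, because both transcripts led a group of cells in an earlier look at the same table, so their levels describe the cells and are not tested. The samples came from wildtype C57BL/6 mice after photothrombosis, in which light acting on an injected dye closes vessels and leaves an infarct in the cortex. In all samples CD3+ cells of the ipsilateral hemisphere, enriched on 37% Percoll, were sorted on day 14 after the stroke into 384-well plates for SORT-seq, which reads 1 cell per well. Untrained mice gave 2 samples of 144 and 190 cells. Trained mice, which ran on wheels from day 2, gave 3 samples of 66, 124 and 168 cells. The labels do not say whether a sample was 1 mouse or a pool, or whether the samples came from separate mice, so p-values rest on the spread between samples alone, which may be technical.

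Kcnq1ot1 is a long antisense RNA made from the paternal allele of an imprinted locus, where it stays in the nucleus and silences neighbouring genes in cis. Messenger RNAs for ribosomal proteins and for the signalling proteins of the T cell receptor are translated in the cytoplasm, and mitochondrially encoded RNAs lie in mitochondria. Spike-ins are synthetic RNAs added to each well in a fixed amount, so they do not come from the cell.

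Values are scores without counts, so a score of 0 is no absence of RNA, differences are in score units, and the depth of each sample is unknown. The table held 2926 mouse genes and 41 spike-ins. Untrained sample 2 stood apart. In it, 44 of the 57 Kcnq1ot1-high cells shared the sample's highest Kcnq1ot1 score, 2.52, and 48 shared the highest A630089N07Rik score. That value equals the square root of 190 cells over 30. In each of the other 4 samples 1 cell held the highest score. A total of 221 of 331 well names occurred in more than 1 sample, and 0 pairs of cells had identical values.

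Kcnq1ot1 lies on chromosome 7 and A630089N07Rik on chromosome 16 in the deposited table, whose genome build is not named. The annotated transcripts of Kcnq1ot1 and of several genes that scored high with it hold the same stretches of bases. The first 30 bases of the longest stretch shared with Kcnq1ot1 are shown for the 3 longest shared runs among A630089N07Rik and the 10 genes furthest above other cells, since longest runs were sought in those alone. They come from GENCODE release M21 transcripts, in the Kcnq1ot1 strand with none in capitals.
A630089N07Rik: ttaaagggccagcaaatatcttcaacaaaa
Grk4: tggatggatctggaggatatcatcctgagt
A130077B15Rik: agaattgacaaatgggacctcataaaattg
The whole shared stretch was 63 bases for A630089N07Rik, 41 for Grk4 and 49 for A130077B15Rik, in the same orientation in each. The 30 bases printed occur in transcripts of 7, 11 and 3 of 55341 annotated genes (0.0126%, 0.0199% and 0.00542%), Kcnq1ot1 included. How the authors assigned reads to such stretches is not stated in any source at hand. How far the separate levels of these genes can be told apart was not tested, nor was whether reads fell in these stretches. Slfn9 shared a run of 33 bases with Kcnq1ot1, Vmn2r55 24 and Gm10785 16, the last in the opposite orientation. Gm17821 shared no run of 16 or more bases.

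The gate score fell into 2 ranges. Of the 692 cells, 276 lay at or below -0.5, 147 from there to 0, 66 between 0 and 0.5, 17 between 0.5 and 0.75 and 11 between 0.75 and 1. Above the threshold 12 cells lay up to 1.25, 5 from there to 1.5, 30 between 1.5 and 2 and 128 above 2. The 5 cells just inside had scores of 1.04 to 1.10 and the 5 just outside 0.851 to 0.996. The mean Kcnq1ot1 score over Kcnq1ot1-high cells was 1.86 and 2.34 in untrained samples 1 and 2, and 2.33, 2.04 and 2.05 in trained samples 1, 2 and 3. A630089N07Rik averaged 1.94 and 2.41 without training and 2.40, 2.07 and 2.13 with it. Untrained sample 2 and trained sample 1 were the highest for both transcripts. Across cells the correlation of the transcripts was r = 0.982 over all 692 cells and 0.774 within the 175 Kcnq1ot1-high cells. It is a description of values from shared libraries.

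**Figure D1:**
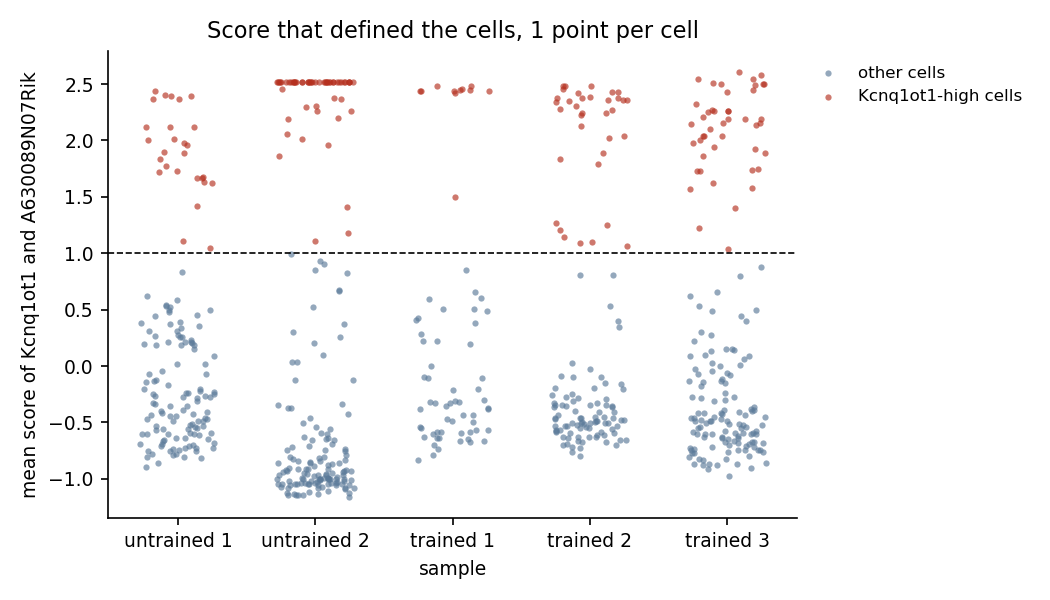
The mean score of Kcnq1ot1 and A630089N07Rik (vertical axis, score units) is plotted for each of 692 cells by sample, with the threshold of 1 as a dashed line. Kcnq1ot1-high cells (red) lie mostly above 1.5, and in untrained sample 2 most share the score 2.52.

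Every sample held Kcnq1ot1-high cells. They made up 18.8% of cells in untrained sample 1 (27 of 144, 95% Wilson interval 13.2 to 25.9) and 30.0% in untrained sample 2 (57 of 190, 23.9 to 36.9). In trained sample 1 they made up 16.7% (11 of 66, 9.57 to 27.4), in sample 2 28.2% (35 of 124, 21.1 to 36.7) and in sample 3 26.8% (45 of 168, 20.7 to 33.9). The groups overlapped, at 23.9% ± 6.27 (SD, n = 3) with training and 24.4% ± 7.92 (SD, n = 2) without. The difference was -0.482 percentage points (two-sided exact permutation p = 1 over 10 splits, where the smallest possible p is 0.1). Without untrained sample 2 it was 5.14 points and without trained sample 1 it was 3.13 points, so its sign rested on single samples.

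A small set of transcripts scored higher in Kcnq1ot1-high cells, and nearly all other genes scored lower. Of 2965 rows tested (all but the gate genes), 195 were higher (6.58%) and 2661 lower (89.7%) at an adjusted p under 0.05 by limma on sample means. The median difference over all rows was -0.263. All 195 were higher in every sample, and 2626 rows (88.6%) were lower in every sample. The gate genes had been picked as leaders of cells grouped on all genes, so these p-values describe how alike the samples were and are not independent evidence. Without untrained sample 2 the counts were 196 higher and 2638 lower.

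The leading transcripts reached scores close to those of the gate genes. Gm10785, a predicted long noncoding RNA on chromosome 16, averaged 1.84 and 2.29 in Kcnq1ot1-high cells of untrained samples 1 and 2, and 2.28, 1.91 and 1.94 in trained samples 1, 2 and 3. In other cells its sample means ran from -0.711 to -0.309, so the classes did not overlap, and the difference was 2.51 (SE 0.0875, adjusted p = 4.73e-10). Gm17821, a pseudogene on chromosome 12, averaged 2.02 ± 0.205 against -0.419 ± 0.174 (SD, n = 5).

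Protein-coding genes were among the leaders too. Vmn2r55 on chromosome 7 encodes a vomeronasal pheromone receptor. It averaged 1.74 ± 0.169 (SD, n = 5) in Kcnq1ot1-high and -0.422 ± 0.114 in other cells. Grk4 on chromosome 5, a kinase of G protein-coupled receptors, averaged 1.47 and 1.75 in Kcnq1ot1-high cells of the untrained samples and 1.87, 1.61 and 1.60 in those of the trained ones. In other cells no sample mean of Grk4 was above -0.283. Slfn9 on chromosome 11, of the Schlafen family, was higher by 1.83 (SE 0.0577, adjusted p = 2.28e-10). The noncoding A130077B15Rik, D830005E20Rik and D630045M09Rik were higher by 2.05, 1.61 and 1.60.

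**Figure D2:**
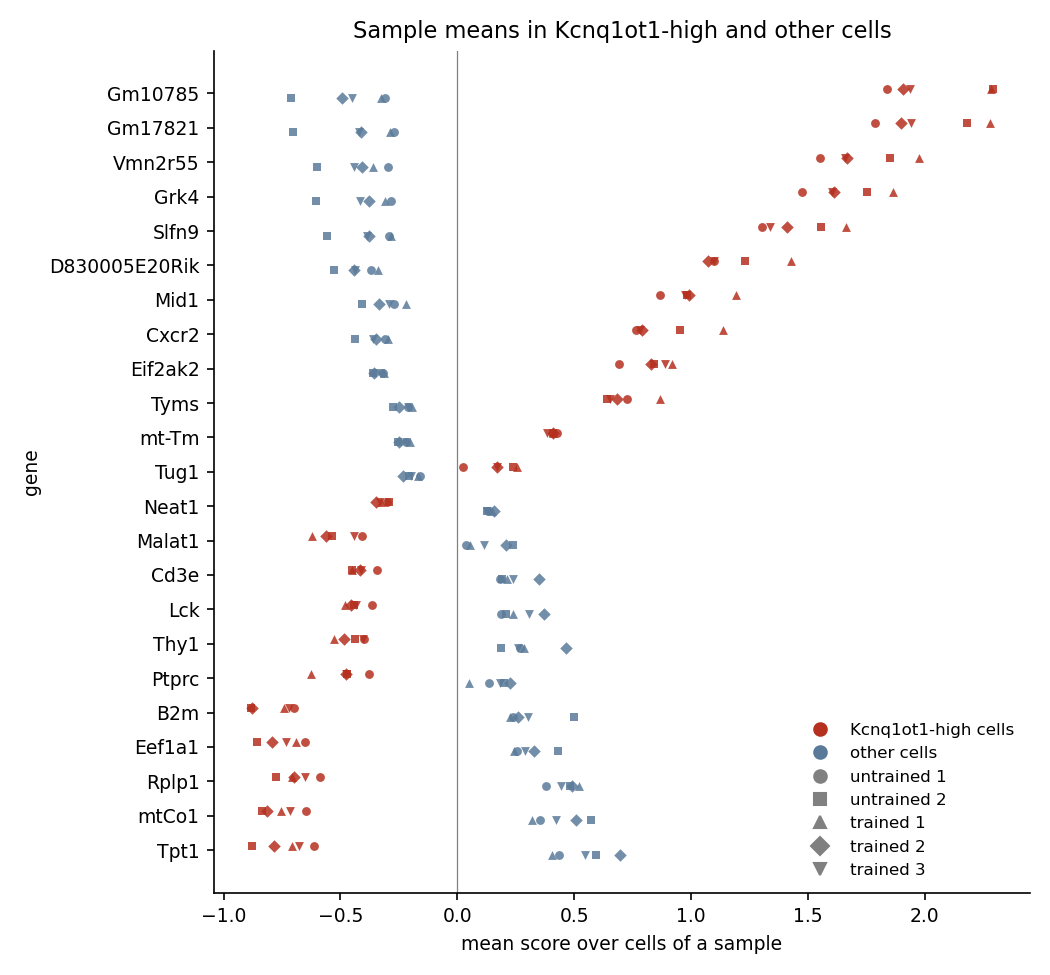
Mean scores over the cells of each sample (horizontal axis, score units) are plotted for 23 genes, with red points for Kcnq1ot1-high cells, blue points for other cells and 1 marker shape per sample. The classes do not overlap for any of the genes drawn, from Gm10785, higher by 2.51, to Tpt1, lower by 1.27.

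Most of the genes that scored higher are annotated as protein-coding, so the cells are only partly described as high in noncoding RNA. Of 193 higher mouse genes 192 matched a RefSeq entry, and 146 of these (76.0%) were protein-coding, 33 (17.2%) long noncoding and 12 (6.25%) pseudogenes. Over all 2905 matched genes 97.5% were protein-coding, 1.76% long noncoding and 0.62% pseudogenes. Of 51 long noncoding genes 33 were thus higher and 18 lower. RefSeq lists A630089N07Rik as long noncoding, whereas GENCODE release M21 lists it as protein-coding.

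Names without a known function were common among them. Each count stands beside 6.58% higher and 89.7% lower over all rows. Of 24 predicted genes named Gm and a number, 21 were higher, with a median difference of 0.739. Of 71 RIKEN transcripts 34 were higher and 36 lower. All 4 measured vomeronasal receptor genes (Vmn1r58, Vmn1r65, Vmn2r-ps129 and Vmn2r55) were higher, with a median difference of 0.971. Of 35 zinc finger genes 9 were higher and 20 lower. Of the 5 Schlafen genes Slfn8 and Slfn9 were higher and the other 3 lower, and of 8 Gimap genes, GTPases of lymphocytes, Gimap1 alone was higher. These families were formed after the values were seen.

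Shared sequence was more common in the higher genes than over all genes. A run of 30 bases shared with Kcnq1ot1 on either strand was found in 80 of the 177 higher genes with a GENCODE transcript (45.2%), in 476 of 2527 lower genes (18.8%) and in 589 of 2798 over all (21.1%). A run shared with A630089N07Rik was found in 12 of the 177 (6.78%) and in 19 over all (0.679%). The longest transcript had a median of 3509 bases in higher genes and 3176 over all, and the median GC content was 46.6% and 49.9%. The part of shared sequence in the scores was not tested.

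Malat1 and Neat1, well-known nuclear noncoding RNAs, were lower in Kcnq1ot1-high cells. In a list of known nuclear and long noncoding RNAs, 8 of the 9 measured members were lower and 1 higher. That share is near the 89.7% of all rows that were lower, so the count says nothing particular about nuclear RNA. The list does not stand for all 51 measured long noncoding genes by RefSeq, of which 33 were higher and 18 lower. Malat1, an abundant RNA of nuclear speckles, averaged -0.406 and -0.537 in Kcnq1ot1-high cells of the untrained and -0.621, -0.562 and -0.442 in those of the trained samples. Its means in other cells were 0.0387 and 0.239, and 0.0541, 0.210 and 0.113, all above those of Kcnq1ot1-high cells. Neat1, the RNA scaffold of paraspeckles, was lower by 0.458 on average (-0.319 ± 0.0223 against 0.138 ± 0.0147, SD, n = 5). Gas5 and Snhg1, hosts of small nucleolar RNAs, were at -0.437 and -0.251 in Kcnq1ot1-high cells and at 0.212 and 0.107 in other cells. The member of the list that was higher was Tug1 (0.172 ± 0.0917 against -0.192 ± 0.0301), with a difference of 0.36, named after its value was seen.

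Genes of other nuclear processes were lower about as often as all rows (89.7%). Of 71 splicing factors and hnRNPs 68 were lower and 1, Rbm34, was higher (0.15), with a list median of -0.336. Ddx5, an RNA helicase of the spliceosome, averaged -0.482 ± 0.0265 in Kcnq1ot1-high and 0.207 ± 0.0650 in other cells (SD, n = 5). Son, a speckle protein, was at -0.449 and 0.125. Among chromatin and transcription genes 36 of 41 were lower and 1, the polymerase subunit Polr2l, was higher (0.08), with a median of -0.250, about that of all rows. Histone and high mobility group genes were lower in 8 of 10, with a median of -0.286. The exceptions Rbm34 and Polr2l were named after their values were seen.

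Ribosomal protein genes were the lists furthest below other cells. All 28 small-subunit genes were lower, with a median difference of -0.853, and 38 of 39 in the large-subunit list, with a median of -0.785, beside 89.7% lower and a median of -0.263 over all rows. The exception was Rpl7l1 (0.09), a ribosomal-like protein named after its value was seen. Rplp1, of the ribosomal stalk, averaged -0.587 and -0.774 in Kcnq1ot1-high cells of untrained samples 1 and 2 and -0.707, -0.698 and -0.650 in trained samples 1, 2 and 3. In other cells its sample means ran from 0.379 to 0.519, and the difference was -1.15 (SE 0.0385, adjusted p = 4.05e-10). Rpsa and Rps24 were lower by 1.14 and 1.11. The row furthest below was Tpt1, a translation-linked growth protein, at -0.733 ± 0.103 against 0.536 ± 0.119, a difference of -1.27.

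In the translation factor list 38 of 39 genes were lower, with a median of -0.376, where 89.7% of all rows were lower. Eef1a1, which carries aminoacyl-tRNA to the ribosome, was at -0.745 ± 0.0822 in Kcnq1ot1-high and 0.310 ± 0.0762 in other cells (SD, n = 5). The exception was Eif2ak2, which is not itself a translation factor but the kinase that senses double-stranded RNA and phosphorylates an initiation factor. It averaged 0.691 and 0.843 in Kcnq1ot1-high cells of the untrained samples and 0.917, 0.827 and 0.889 in those of the trained ones. Its sample means in other cells were all between -0.361 and -0.315, and the difference was 1.17 (SE 0.0330, adjusted p = 1.45e-10).

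Mitochondrially encoded RNAs were lower in 15 of 16, a share close to the 89.7% of all rows, with a median of -0.602 beside -0.263. The oxidase subunit mtCo1 averaged -0.648 and -0.835 in Kcnq1ot1-high cells of the untrained samples and -0.754, -0.813 and -0.716 in those of the trained ones. Its means in other cells were 0.353 and 0.574, and 0.320, 0.509 and 0.421. Those ranges lay apart, and mtAtp6 and mtCo3 were lower by 0.972 and 0.915. The methionine transfer RNA mt-Tm was the exception, at 0.407 ± 0.0159 against -0.229 ± 0.0216. All 69 nuclear genes of oxidative phosphorylation were lower, with a median of -0.388.

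T cell genes were low in the same cells. All 21 measured genes of the T cell receptor complex and its proximal signalling were lower, with a median of -0.409, beside 89.7% and -0.263 for all rows, so nothing particular to T cell genes is shown. Cd3e, a chain of the receptor complex, averaged -0.345 and -0.451 in Kcnq1ot1-high cells of untrained samples 1 and 2 and -0.452, -0.415 and -0.412 in trained samples 1, 2 and 3. In other cells its means were 0.184 and 0.193, and 0.213, 0.350 and 0.239. The kinase Lck was at -0.435 ± 0.0431 against 0.262 ± 0.0756 (SD, n = 5), the surface protein Thy1 at -0.450 against 0.292 and the leukocyte phosphatase Ptprc at -0.485 against 0.160. Cd3d and Cd3g were lower by 0.479 and 0.448.

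The sorted cell type was therefore checked on 7 T cell markers (Cd3d, Cd3e, Cd3g, Cd247, Lck, Thy1 and Cd2). Their mean was -0.366 ± 0.0325 in Kcnq1ot1-high cells (samples from -0.403 to -0.317) and 0.177 ± 0.0506 in other cells (0.130 to 0.257). The difference was -0.543 and negative in 5 of 5 samples (two-sided exact sign-flip p = 0.063 over 32 arrangements, the smallest possible). The mean over all rows differed by -0.238 and gave the same p by that test. Since 88.6% of rows were lower in every sample, the shared sign shows nothing particular to T cell markers. The marker mean was above 0 in 9 of 175 Kcnq1ot1-high cells (5.14%) and in 336 of 517 other cells (65%). The cells had passed a sort on CD3 protein, and a score below 0 does not show that the RNA was absent.

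Coreceptor RNA was low too. With CD8 called from the mean of Cd8a and Cd8b1 above 0 and CD4 from Cd4 above 0, 127 of 175 Kcnq1ot1-high cells (72.6%) had neither, against 39.3% of other cells. CD8 alone was called in 14.3% against 25.9%, CD4 alone in 12% against 24.2% and both in 1.14% against 10.6%. The differences of Cd4, Cd8a and Cd8b1 were -0.391, -0.254 and -0.364, beside a median of -0.263 over all rows. With 89.7% of all rows lower, nothing particular to coreceptor genes is shown. These calls are ranges of a score and not detected transcripts.

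**Figure D3:**
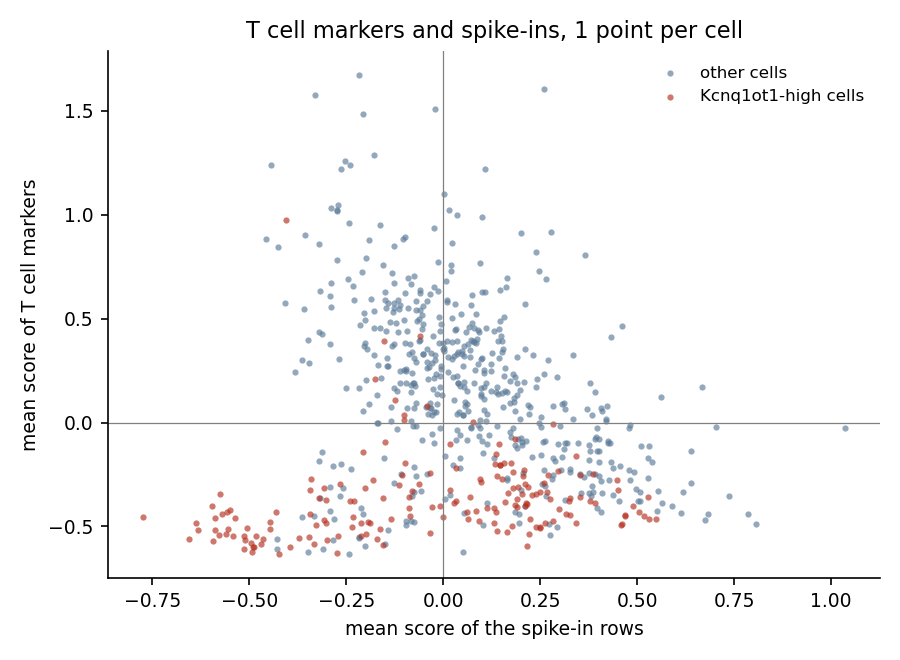
The mean score of 7 T cell markers (vertical axis) is plotted against the mean score of 41 spike-ins (horizontal axis) for each cell, both in score units. Kcnq1ot1-high cells (red) lie below 0 for the markers in 166 of 175 cells and on both sides of 0 for the spike-ins.

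Markers of other cell types were lower too, with 1 exception, where 89.7% of all rows were lower. The 3 measured microglia genes and the 5 macrophage or monocyte genes were all lower, with medians of -0.451 and -0.534, and so were the 2 oligodendrocyte genes Mbp and Cnp, the 2 NK cell genes Tyrobp and Fcer1g, which the microglia list also holds, and the endothelial Bsg. The mean of Cst3, Ctss and C1qb ran from -0.563 to -0.381 over samples in Kcnq1ot1-high cells and from -0.0123 to 0.322 in other cells. It was above 1 in 2 Kcnq1ot1-high and 54 other cells. Cxcr2, the chemokine receptor of neutrophils and the only measured gene of the neutrophil list, was higher (0.885 ± 0.160 against -0.351 ± 0.0542, SD, n = 5). With 1 gene measured, the part of neutrophils in that result was not tested. Lists for B cells, astrocytes, neurons and erythrocytes had 0 measured genes.

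Genes of cytotoxic function, the cytoskeleton and antigen presentation were lower with 1 exception in the lists measured, beside 89.7% of all rows. All 14 cytotoxic effector genes were lower, with a median of -0.461, among them the chemokine Ccl5 (-0.839) and the granule protein Nkg7 (-0.755). All 22 actin and thymosin genes were lower, with a median of -0.593, and Actb was at -0.725 against 0.257. In the proteasome and antigen presentation list 43 of 44 were lower, with a median of -0.364, and B2m, the light chain of class I molecules, was lower by 1.09. The exception was H2-Q4 (0.21), a class I gene named after its value was seen.

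All 25 genes of heat shock and tissue dissociation were lower, with a median of -0.457, beside 89.7% lower and a median of -0.263 over all rows, including the chaperone Hspa8 (-0.760) and the immediate-early factor Junb (-0.548). In the cell death and p53 list 6 of 7 were lower, about the share of all rows, and the opposing regulators Bax and Bcl2 differed by -0.313 and -0.405. Of 35 genes in the interferon-stimulated list 34 were lower, with a median of -0.269, which is close to that of all rows, and Slfn8 was higher by 1.17. Eif2ak2, also higher by 1.17, was counted in the translation factor list and not in the interferon-stimulated list. Of 6 proliferation genes Tyms, which makes thymidylate for DNA, was higher by 0.942 and 4 were lower. Another list held transcripts that overlap ribosomal RNA or are known as plate background. In it Mid1, an X-linked ubiquitin ligase, was higher by 1.31, and Rn45s, Lars2 and Erdr1 were lower by 0.677, 0.433 and 0.202. Among the alternatives Erdr1 lost its call with the median score (-0.076, adjusted p = 0.122), in wells with a spike-in mean above 0 (-0.070, adjusted p = 0.0807) and against other cells with a mean over all rows below 0 (-0.018, adjusted p = 0.664).

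**Figure D4:**
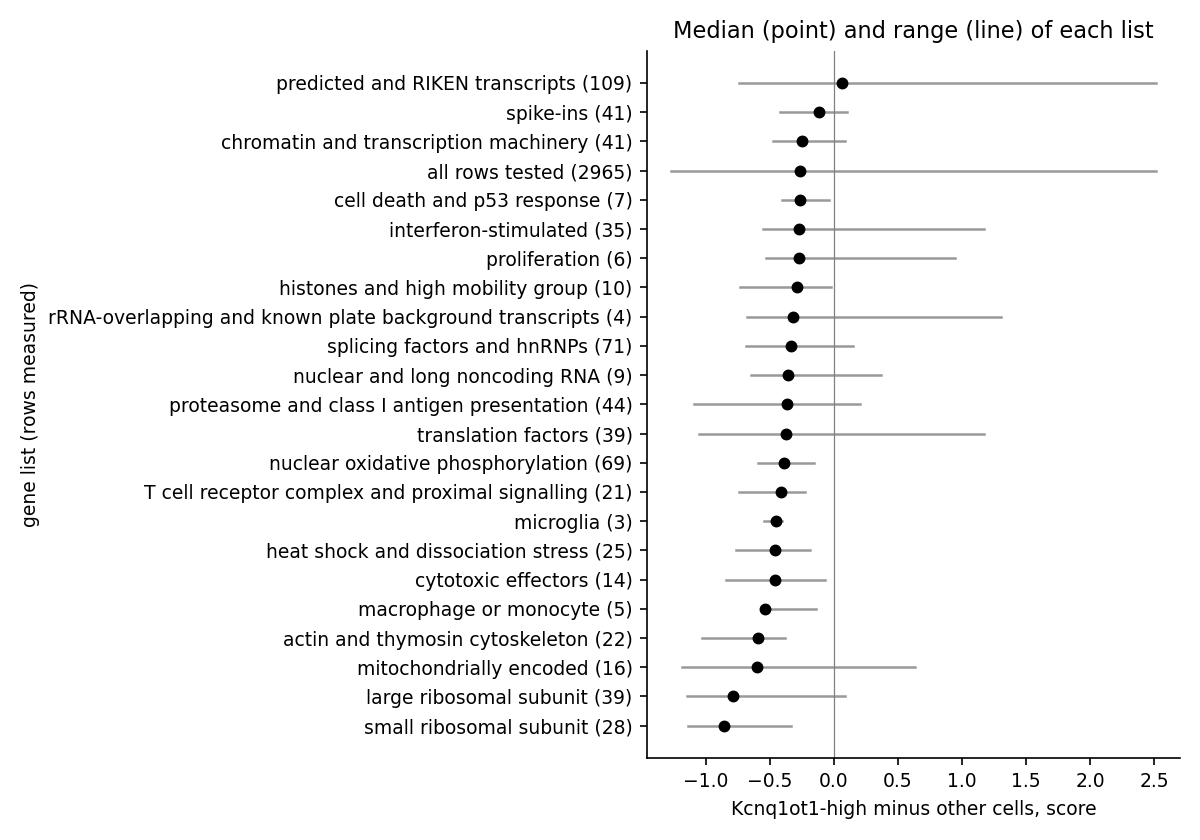
The difference between Kcnq1ot1-high and other cells (horizontal axis, score units) is plotted for each list with at least 3 measured rows, as the median (point) and the range over its rows (line). The median was -0.853 for small ribosomal genes, -0.263 over all rows and 0.06 for predicted and RIKEN transcripts, of which 55 of 109 were higher and 52 lower.

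Spike-in RNAs were slightly lower in wells of Kcnq1ot1-high cells. Their mean score was -0.052 ± 0.0359 in these wells and 0.0734 ± 0.0385 in wells of other cells (SD, n = 5). The difference of -0.126 was negative in 5 of 5 samples (two-sided exact sign-flip p = 0.063, the smallest possible), and it was -0.0548 with a gate above 0.5. Of the 41 spike-ins 26 were lower and 2, ERCC-00131 and ERCC-00054, were higher by limma, with a median of -0.117 beside -0.263 for all rows. The mean over all rows was -0.196 ± 0.0151 in Kcnq1ot1-high and 0.042 ± 0.0182 in other cells. On average Kcnq1ot1-high cells were thus low in most mouse genes and slightly low in spike-ins. That average joins cells on both sides of 0. The spike-in mean was 0.239 in Kcnq1ot1-high cells above 0 and -0.334 in those at or below 0. In other cells it was 0.231 and -0.131. The amount of RNA in a well cannot be read from these scores.

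The spike-in mean was above 0 in 87 of 175 Kcnq1ot1-high cells and at or below 0 in 88. The share above 0 was 51.9% (14 of 27) and 42.1% (24 of 57) in untrained samples 1 and 2. It was 45.5% (5 of 11), 54.3% (19 of 35) and 55.6% (25 of 45) in trained samples 1, 2 and 3. In other cells it was 58.8% ± 10.6 (SD, n = 5), and the difference was -8.89 percentage points (two-sided exact sign-flip p = 0.125). It was -1.30 points (exact p = 0.688) with the split at each sample's median and -1.68 points (exact p = 0.75) with a gate above 0.5. The share in trained and untrained samples differed by 4.79 points (exact permutation p = 0.5 over 10 splits).

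Kcnq1ot1-high cells differed among themselves along this split. Of 2924 mouse genes tested, 588 were higher (20.1%) and 229 lower (7.83%) in cells with a spike-in mean above 0 than in those at or below 0. The lower ones included most of the transcripts that set Kcnq1ot1-high cells apart: of the 193 higher genes 167 were lower in cells with a spike-in mean above 0, 1 was higher and 25 did not pass the test. The higher count moved with single samples, to 286 without untrained sample 1, 105 without trained sample 2 and 163 without trained sample 3. The SD of a cell's scores over all rows averaged 0.498 in Kcnq1ot1-high cells at or below 0 and 0.376 in those above 0. In other cells it was 0.574 and 0.471. The part of this spread in the calls along the split was not tested.

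The long noncoding D830005E20Rik separated the cells most. In cells at or below 0 it averaged 1.52 and 1.75 without training and 2.08, 1.97 and 1.76 with it. In cells above 0 it averaged 0.713 and 0.526, and 0.648, 0.320 and 0.568, so the ranges did not overlap (difference -1.26, SE 0.103, adjusted p = 0.000183). Aplf, a DNA break repair factor, fell from 1.61 to 0.450, and Tyms from 1.27 to 0.153. Gimap1 was at 1.2 in cells at or below 0 and at 0.0714 in cells above 0, and the vomeronasal receptor gene Vmn1r65 at 1.19 and 0.0781. Eif2ak2 differed by -0.891 and Cxcr2 by -0.953.

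The leading transcripts differed less. Gm10785 averaged 2.26 in cells at or below 0 and 1.86 in cells above 0, a difference of -0.395 (SE 0.110, adjusted p = 0.0339). It was lower above 0 in 4 of 5 samples, and in trained sample 1 it was at 2.23 and 2.35. In that sample 5 of 11 Kcnq1ot1-high cells lay above 0, and the fit weighted all samples alike. Gm17821 differed by -0.378. The gate genes themselves, which were not tested, averaged 1.99 against 2.27 for Kcnq1ot1 and 2.10 against 2.30 for A630089N07Rik.

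Genes higher in cells with a spike-in mean above 0 changed by less, and most of those named stayed below 0. Med28, a Mediator subunit, was at -0.382 in cells at or below 0 and at -0.0718 in cells above 0 (difference 0.31, SE 0.0464, adjusted p = 0.00379). The adhesion receptor Cd48 was at -0.496 and -0.224, the RNA-binding protein Ssb at -0.337 and -0.0678 and the glucocorticoid receptor Nr3c1 at -0.410 and -0.143. The transcription factor Runx2 went from -0.191 to 0.0723. The splicing regulator Ptbp3, with the largest difference (0.33), lost its call without untrained sample 1, trained sample 2 or trained sample 3 (adjusted p from 0.0877 to 0.108). Cd48 lost it without untrained sample 1 or trained sample 2, and Sf3b2, a splicing factor, without trained sample 2 or trained sample 3.

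**Figure D5:**
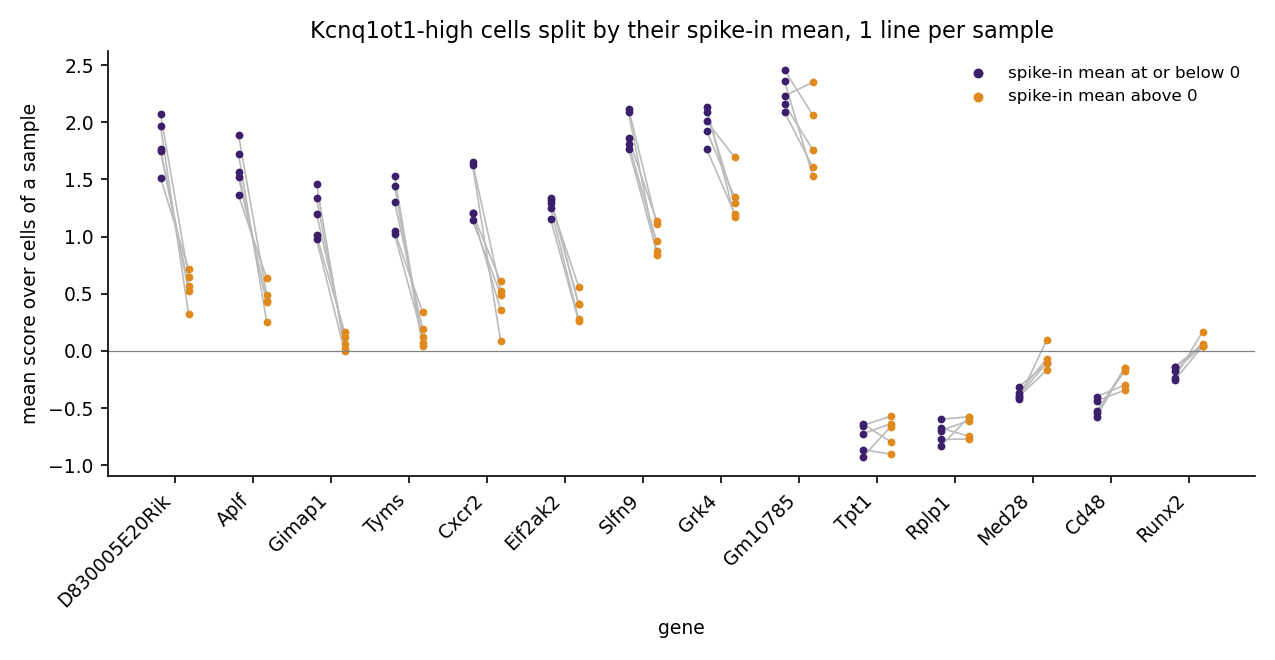
Mean scores over Kcnq1ot1-high cells of each sample (vertical axis, score units) are plotted for 14 genes, with purple points for cells with a spike-in mean at or below 0, orange points for those above 0 and a line joining each sample. D830005E20Rik averaged 1.81 and 0.555, whereas Rplp1 averaged -0.717 and -0.657.

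Ribosomal genes showed little difference along the split. In the small-subunit list Rps26 alone passed the test (0.13), and in the large-subunit list Rpl7a (-0.13) and Rpl7l1 (-0.25) did, all 3 named after their values were seen. Rplp1 differed by 0.06 (adjusted p = 0.343) and Tpt1 by 0.05 (adjusted p = 0.529). Of 69 oxidative phosphorylation genes 22 were higher and 0 lower above a spike-in mean of 0, with a median of 0.08, where 20.1% of all genes tested were higher, 7.83% lower and the median was 0.06. In the T cell receptor list 2 of 21 were higher, Cd3e (0.12) and Lcp2 (0.24). Of the nuclear noncoding RNAs Neat1 (0.10), Snhg1 (0.10) and Snhg8 (0.13) were higher and Tug1 (-0.28) lower.

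In other cells most genes were lower above a spike-in mean of 0, whereas in Kcnq1ot1-high cells most genes were not called along the split. The median difference was -0.137 in other cells and 0.06 in Kcnq1ot1-high cells. Of 2924 genes 34 were higher (1.16%) and 1947 lower (66.6%) in cells with a spike-in mean above 0. The interaction of cell class and split was positive for 2098 genes (71.8%) and negative for 191 (6.53%), in a comparison added after the data were seen. For Tpt1 the difference between spike-in ranges was 0.05 in Kcnq1ot1-high and -0.44 in other cells (interaction 0.49, SE 0.0909, adjusted p = 0.000119). For D830005E20Rik it was -1.26 and 0.08 (interaction -1.34, adjusted p = 3.14e-09). T cell markers averaged -0.350 and -0.388 in Kcnq1ot1-high cells above and at or below 0, and 0.0861 and 0.301 in other cells.

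The difference between the cell classes was present in both spike-in ranges. Above 0, 167 rows were higher (5.63%) and 2406 lower (81.1%) in Kcnq1ot1-high cells, and at or below 0, 194 (6.54%) and 2644 (89.2%). Of the 195 rows higher over all cells 155 were called higher above 0, 190 at or below 0 and 152 in both. Gm10785 was higher by 2.24 above 0 and by 2.83 at or below 0, and Gimap1 by 0.256 and 1.41. Rplp1 was lower by 0.958 and 1.40.

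Within Kcnq1ot1-high cells training was compared on sample means. Of 2965 rows 0 were called (0%) by limma, and 91 (3.07%) had an unadjusted p under 0.05. The trained and untrained samples did not overlap for 548 rows (18.5%), 113 higher and 435 lower with training (3.81% and 14.7%). The vomeronasal receptor gene Vmn1r58 was at 0.633 and 0.748 without and at 0.951, 0.851 and 0.819 with training, a difference of 0.18 (SE 0.0496, adjusted p = 0.992). Csnk2a1, a catalytic subunit of casein kinase 2, was at -0.0155 and -0.0642 without and at -0.183, -0.159 and -0.183 with training (difference -0.135, SE 0.0325, adjusted p = 0.992). Neither passed the threshold. Their groups did not overlap, which held for 18.5% of all rows and so is no sign of an effect of training. The leading transcript Gm10785 averaged 2.07 without and 2.04 with training, and its samples overlapped.

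The difference between Kcnq1ot1-high and other cells was also compared between trained and untrained samples. By limma 0 of 2965 rows were called (0%), and 56 (1.89%) had an unadjusted p under 0.05. Arl4c, a small GTPase, had an interaction of -0.285 (SE 0.0579, adjusted p = 1). With 2 untrained samples these comparisons cannot show that training left the cells alike.

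In untrained sample 2, 699 rows had an empty range wider than 1 score unit between a lower and an upper group of cells, against 5, 123, 13 and 0 rows in untrained sample 1 and trained samples 1, 2 and 3. A Kcnq1ot1-high cell of that sample lay in the upper group for a median of 11 of these rows (quartiles 7.0 to 18), and an other cell for 57 (26 to 98). In Kcnq1ot1-high cells the median was 7.0 rows with a spike-in mean above 0 and 17 at or below 0. Kcnq1ot1-high cells were thus in the upper group for fewer genes than other cells of the same sample.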

How the data were processed

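The 5 samples (2 untrained, 3 trained) follow the treatment label, and each cell goes to the sample given by the ending of its name. Despite its name, the deposited matrix holds scores from -2.12 to 3.74, with 72.7% below 0 and 0 whole numbers. Reads were processed with Cell Ranger, per the submitters' processing notes, with no version given. No source used here gives the normalisation, integration or genome build, and depth is unknown. The values allow no count test, so mean scores per gene, sample and class were fitted with limma 3.58.1 (R 4.3.3), with the sample as a block between cell classes or spike-in ranges, on all rows but the gate genes, with Benjamini-Hochberg adjustment and a threshold of 0.05. Tests are two-sided. The fit was tested on simulated shifts.

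The cells, gene lists and tests were chosen with earlier results of these data known. Named genes were up to 10 per direction past the threshold with the largest difference and 1 sign in every sample, the 5 of smallest p if fewer than 5 passed, plus up to 4 of each list and a set of lineage genes. Names were matched to RefSeq and GENCODE release M21 by symbol (2905 and 2798 of 2924 genes) with Python 3.11.15 and pandas 2.3.3. Other gates, subsets, medians, scalings and each sample left out were tried. Not every gene named by the rule is reported.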

Additional observations from a re-analysis of the deposited data

How the results depend on the processing

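The count of rows higher in Kcnq1ot1-high than in other cells ran from 155 (median score) to 212 (other cells with a mean over all rows below 0, added after the data were seen), and that of lower rows from 2003 (without the rows of lowest SD) to 2673 (gate above 1.5). Leaving out 1 sample gave 190 to 196 higher and 2634 to 2660 lower. Without the sample block 196 were higher and 2668 lower. Between trained and untrained samples no pairing was possible because the labels give no replicate numbers. The sample numbers used here follow the order of the cell name endings within each group and pair no samples. The share of Kcnq1ot1-high cells, trained minus untrained, was 0.158 percentage points with a gate above 0.5 and from -6.107 to 5.143 with 1 sample left out. Within Kcnq1ot1-high cells the count higher at a spike-in mean above 0 was 588, against 1168 with a gate above 1.5, 1987 with the median score and 105 to 724 with 1 sample left out. In other cells it was 34, and 20 to 28 with 1 sample left out. The cause of these shifts was not tested. ERCC-00074 lost its call with the median score (adjusted p = 0.883) and in wells with a spike-in mean above 0 (adjusted p = 0.923), and Ptbp3 with the split at the median of Kcnq1ot1-high cells (adjusted p = 0.059) and with the median score (adjusted p = 0.0673). The training comparisons gave 0 calls under every alternative run. The scores carry no counts, so the depth behind any value is unknown.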
